A study of Mus musculus with 14 samples.

Results

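The T cell receptor complex and its proximal signalling genes were examined here at the level of chromatin, as the accessible regions around 10 genes: Cd3e, Cd3d, Cd3g, Cd247, Cd4, Lck, Zap70, Lat, Cd5 and Cd6. A region was taken when its midpoint had a transcription start of such a gene as the nearest protein-coding start, or lay within the body of such a gene (GRCm38, RefSeq annotation). This gave 79 of the 67254 regions counted in the series, with 23 at Cd247, 12 at Cd5, 9 at Cd6, 9 at Zap70, 8 at Lat, 7 at Cd3e, 7 at Lck, 2 at Cd3d, 1 at Cd3g and 1 at Cd4. Bulk ATAC-seq, in which a transposase cuts into open chromatin, was performed on splenic regulatory T cells (Tregs) in 4 groups. There were 3 control and 4 Atg14-deficient libraries of central Tregs (cTregs), and likewise 3 control and 4 Atg14-deficient libraries of effector Tregs (eTregs). The cTregs were sorted as CD4+ Foxp3-YFP+ CD44- CD62L+ cells and the eTregs as CD4+ Foxp3-YFP+ CD44+ CD62L- cells, all carrying the congenic marker CD45.2.

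All cells came from mixed bone marrow (BM) chimeras, in which CD45.2+ marrow of Foxp3 Cre Atg14 +/fl mice (control) or of Foxp3 Cre Atg14 fl/fl mice (Atg14-deficient) had been mixed with an equal amount of CD45.1+ wild-type marrow and transferred to sublethally irradiated Rag1-/- mice, which lack T and B cells of their own, 6 to 8 weeks earlier. Control cells thus carried the same Cre, expressed from the Foxp3 locus and so active in Foxp3-expressing cells, together with a floxed and an intact Atg14 allele. Atg14 is a subunit of the Vps34 lipid kinase complex that acts in autophagy. Counts over open regions do not measure the deletion itself, and the Atg14 promoter region held 22.5 to 35.2 CPM (the count scaled by the total of its library) in control cTregs, 16.8 to 25.7 in Atg14-deficient cTregs, 19.8 to 31.2 in control eTregs and 20.9 to 29.3 in Atg14-deficient eTregs. Both populations were sorted from the spleens of 3 control and 4 Atg14-deficient chimeras, as many as the libraries of each population. That a replicate number marks the same mouse in both populations is not stated. In bulk libraries, fewer cells with an open region and a lower degree of opening per cell cannot be told apart.

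Each library held 2242983 to 5548189 counts in all. As a check of the labels, promoter regions of marker genes were summed, with the most accessible region where a gene had several. The promoters of the Treg genes Il2ra, Ikzf2 and Ctla4 were open in every library (summed 80.0 to 149 CPM), and no promoter region was listed for Foxp3 itself within 1000 bp of a start. Of the cTreg genes, the Klf2 promoter held 97.2 to 179 CPM in cTregs, 76.8 to 102 CPM in control eTregs and 106 to 124 CPM in Atg14-deficient eTregs. The Ccr7 promoter held 18.7 to 44.0 CPM in cTregs, 8.78 to 13.6 CPM in control eTregs and 15.9 to 25.9 CPM in Atg14-deficient eTregs. The Lef1 promoter overlapped throughout, with 38.5 to 53.6 CPM in cTregs and 35.3 to 54.5 CPM in eTregs. Of the eTreg genes Klrg1, Il1rl1, Itgae, Prdm1 and Icos, 3 had promoter regions. These summed to between 79.5 and 121 CPM in cTregs and between 70.7 and 95.8 CPM in eTregs, so that the summed eTreg list did not separate the populations. By gene, the Icos promoter was lower in eTregs without overlap, with 29.3 to 48.7 CPM in cTregs and 16.2 to 25.2 CPM in eTregs. Klrg1 held 0 to 3.85 CPM in cTregs and 1.44 to 8.73 CPM in eTregs. Prdm1 held 43.0 to 68.9 CPM in cTregs and 44.3 to 73.6 CPM in eTregs. Of other cell types, no B cell marker promoter (of 4) was listed, 1 of 4 myeloid ones held 2.52 to 7.01 CPM, 2 of 3 NK cell ones held 9.26 to 21.6 CPM and 2 of 3 erythroid ones held 10.3 to 21.6 CPM. Of the markers Cd4, Cd8a and Cd8b1, Cd8b1 alone had a promoter region, with 10.3 to 21.4 CPM in cTregs and 1.54 to 6.83 CPM in eTregs.

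The T cell receptor cannot signal by itself. It is assembled with the CD3 chains, encoded by the neighbouring genes Cd3e, Cd3d and Cd3g, and with the zeta chain encoded by Cd247, which carry the tyrosine motifs that are phosphorylated when antigen is bound. The kinase Lck, held by the coreceptor CD4, phosphorylates these motifs, the kinase ZAP-70 docks on them, and ZAP-70 phosphorylates the scaffold LAT, from which downstream signalling is assembled. CD5 and CD6 are scavenger-receptor proteins of the T cell surface that tune this signal, and CD5 levels are known to follow the strength of signalling. Tregs need signals from their receptor to pass from the central to the effector state.

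Of the 12 regions called between eTregs and cTregs, 9 lay within introns (75.0%, against 40.0% of the 75 tested regions of these genes). Of these 9, 6 were at Cd247. The intronic share of all called regions of the series was not computed, so the 75.0% cannot be set against it. The sequences of 6 are shown, 4 from Cd247, 1 from Zap70 and 1 from Cd6, because they carry the state differences described further on. The region upstream of Lck is added for its genotype difference and the Cd4 intron for having the highest level of all (GRCm38, the centre of the region up to 300 bases, read 5′ to 3′ on the strand of the gene). Capitals mark matches, on either strand, to short motifs of 6 transcription factor families, and sequence without capitals holds none of them. The letters TGTGGT were searched for RUNX factors, which act throughout the T cell lineage. For TCF and LEF factors, which are high in naive and central T cells, the letters were CTTTGA. The AP-1 factors, which are induced by receptor signalling, were searched as TGANTCA. For KLF factors, among them Klf2 of resting T cells, CACACCC was used. The GATA factors, among them Gata3, were searched as AGATAA and the ETS factors, which are common at T cell enhancers and promoters, as CCGGAA.
Cd247 intron, lower in eTregs, chr1:165837771-165838070, plus strand: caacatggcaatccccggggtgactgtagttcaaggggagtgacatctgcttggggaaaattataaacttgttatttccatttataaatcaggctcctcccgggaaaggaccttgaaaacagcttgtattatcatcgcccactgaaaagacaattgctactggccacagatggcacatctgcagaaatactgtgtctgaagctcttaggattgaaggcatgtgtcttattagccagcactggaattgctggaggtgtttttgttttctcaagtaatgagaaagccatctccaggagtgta
Cd247 intron, lower in eTregs, chr1:165840896-165841137, plus strand: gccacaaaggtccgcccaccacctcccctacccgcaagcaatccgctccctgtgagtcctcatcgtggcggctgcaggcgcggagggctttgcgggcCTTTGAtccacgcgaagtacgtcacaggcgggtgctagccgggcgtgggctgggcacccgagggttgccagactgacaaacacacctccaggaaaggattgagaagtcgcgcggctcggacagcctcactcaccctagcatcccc
Cd247 intron, lower in eTregs, chr1:165810716-165810916, plus strand: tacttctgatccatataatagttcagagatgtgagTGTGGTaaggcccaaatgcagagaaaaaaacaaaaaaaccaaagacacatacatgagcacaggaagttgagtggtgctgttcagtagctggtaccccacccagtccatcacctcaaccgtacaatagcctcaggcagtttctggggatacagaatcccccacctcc
Cd247 intron, higher in eTregs, chr1:165822079-165822378, plus strand: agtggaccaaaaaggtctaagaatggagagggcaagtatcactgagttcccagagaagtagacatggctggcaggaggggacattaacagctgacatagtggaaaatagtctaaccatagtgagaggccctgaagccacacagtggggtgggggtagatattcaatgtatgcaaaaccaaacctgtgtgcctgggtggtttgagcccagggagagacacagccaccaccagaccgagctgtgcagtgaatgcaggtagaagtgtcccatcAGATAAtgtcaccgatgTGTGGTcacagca
Zap70 intron, higher in eTregs, chr1:36768841-36769140, plus strand: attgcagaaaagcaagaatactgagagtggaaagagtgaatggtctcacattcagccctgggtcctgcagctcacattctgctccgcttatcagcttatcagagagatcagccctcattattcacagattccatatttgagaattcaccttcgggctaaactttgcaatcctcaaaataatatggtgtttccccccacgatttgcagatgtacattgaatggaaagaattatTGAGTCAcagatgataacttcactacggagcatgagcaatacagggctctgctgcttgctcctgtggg
Cd6 intron, higher in eTregs, chr19:10801097-10801396, minus strand: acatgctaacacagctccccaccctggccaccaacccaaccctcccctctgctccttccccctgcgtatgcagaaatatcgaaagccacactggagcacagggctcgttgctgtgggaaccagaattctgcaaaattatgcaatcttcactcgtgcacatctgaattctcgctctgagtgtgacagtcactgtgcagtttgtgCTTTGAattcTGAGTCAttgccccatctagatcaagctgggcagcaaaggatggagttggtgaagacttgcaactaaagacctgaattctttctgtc
Lck upstream region, chr4:129575212-129575511, minus strand: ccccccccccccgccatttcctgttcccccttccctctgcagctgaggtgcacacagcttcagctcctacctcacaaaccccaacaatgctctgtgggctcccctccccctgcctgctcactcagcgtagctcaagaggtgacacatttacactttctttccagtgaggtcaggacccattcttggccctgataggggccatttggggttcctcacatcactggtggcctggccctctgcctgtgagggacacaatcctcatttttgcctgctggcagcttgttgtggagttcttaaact
Cd4 intron, chr6:124885188-124885487, minus strand: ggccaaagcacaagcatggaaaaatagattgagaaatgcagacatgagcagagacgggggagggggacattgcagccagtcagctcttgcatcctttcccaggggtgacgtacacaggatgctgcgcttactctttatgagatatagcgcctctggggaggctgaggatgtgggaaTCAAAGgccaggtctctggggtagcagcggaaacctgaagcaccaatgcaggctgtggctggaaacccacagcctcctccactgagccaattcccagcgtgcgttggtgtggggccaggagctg
Both the Zap70 and the Cd6 window held an AP-1 match, and the 4 Cd247 windows shown held none.

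Over the 75 regions that passed the filter on low counts, RUNX matches were found in 29 of the 300-base windows (38.7%), against 29.1% of all tested windows, and outside promoters in 26 of 63 (41.3%) against 33.7%. ETS matches were found in 13.3% against 10.9%, TCF and LEF matches in 18.7% against 20.8%, AP-1 matches in 14.7% against 14.6%, KLF matches in 9.33% against 9.46% and GATA matches in 12.0% against 13.2%. The 12 promoter regions of these genes had a median GC content of 55.7%, against 64.0% for all promoter regions, and RUNX matches in 25.0% against 13.7%. Among regions called between the states, AP-1 matches were in 2 of the 4 that were higher in eTregs and in 0 of the 8 that were lower, beside 28.4% of all regions higher and 12.2% of all regions lower in eTregs. These are matches of letters, not measured binding, and were not tested.

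The level of accessibility differed widely among the regions (plot of levels per kb by gene). Levels between regions are given as CPM per kb, as the mean ± SD of all 14 libraries. The highest was the only region at Cd4, the coreceptor of helper T cells and Tregs, an intronic region 2.86 kb into the gene (chr6:124885134-124885542) with 73.3 ± 20.9 CPM per kb. Next came the promoter of Cd5 with 67.2 ± 17.3, the region 1.72 kb upstream of Lck with 64.9 ± 11.1, and the promoter of Cd247 with 58.3 ± 17.8 CPM per kb. A region just downstream of the Cd247 promoter (57.4 ± 13.2), a Cd247 intron (57.1 ± 7.08), the region 8.84 kb upstream of Cd5 (55.0 ± 13.4) and the promoter of Zap70 (54.9 ± 10.1) followed. Neighbours in this order differed by less than their SDs. Both Cd247 regions outside the promoter, and the upstream Lck promoter given next, were chosen after their values were seen.

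**Figure D1:**
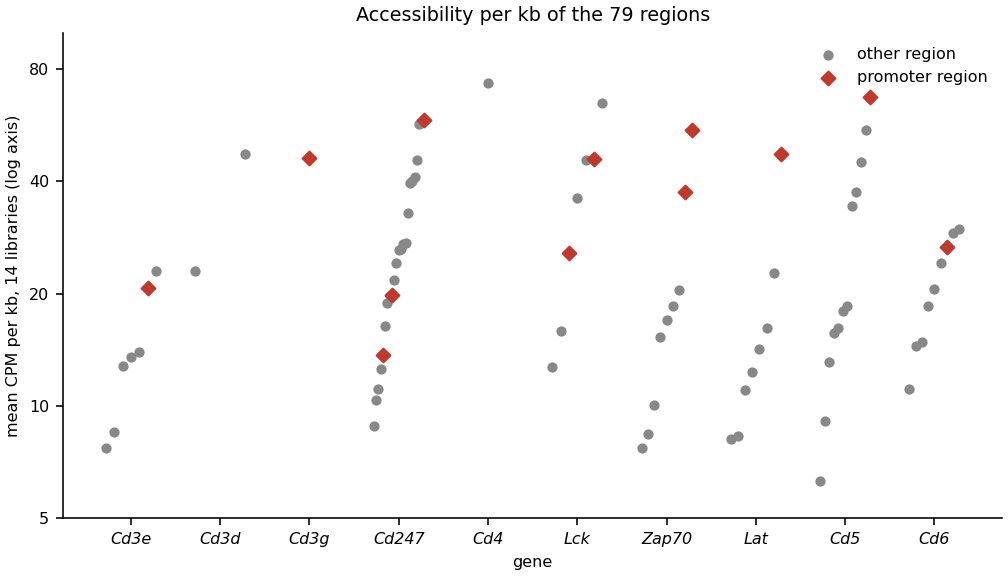
Mean accessibility of each of the 79 regions over all 14 libraries, in CPM per kb on a log axis, grouped by gene. Diamonds are promoter regions (midpoint within 1000 bp of a start) and circles other regions; Cd4 has a lone intronic region at 73.3 CPM per kb, and each of the larger loci spans a wide range of levels.

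Lower promoter levels were found at Lat, the scaffold, with 47.4 ± 10.2, at Cd3g with 46.2 ± 8.17, at the upstream promoter of Lck with 45.9 ± 12.9, at Cd6 with 26.7 ± 9.01 and at Cd3e with 20.6 ± 5.33 CPM per kb. The Cd3g promoter region (chr9:44980287-44980668) lay between the divergently transcribed Cd3g and Cd3d genes and was assigned to Cd3g as the nearest start, and no region had its midpoint within 1000 bp of a Cd3d start. The most accessible Cd3d region lay in a coding exon 4.75 kb into the gene (chr9:44986211-44986866), with 47.5 ± 11.0 CPM per kb. At Cd247 the intronic region 56.4 kb past the nearest start (chr1:165844422-165845671) held 57.0 to 93.6 CPM in the 14 libraries, with a state difference of -0.17 ± 0.10 (SE, edgeR adjusted p = 0.228).

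The comparison of eTregs with cTregs asks which parts of these loci open or close as Tregs take on the effector state. Averaged over the genotypes, 12 of the 75 tested regions were called (edgeR quasi-likelihood test with Benjamini-Hochberg adjustment over all regions, taking an adjusted p below 0.05 where the change on the log2 scale was more than 0.5), which is 16.0% against 18.9% of all 61366 regions tested. Of these, 4 were more accessible in eTregs (5.33%, against 8.40% of all regions) and 8 were less accessible (10.7%, against 10.5%). The share is thus near the background. Of the 12 regions, 2 (1 at Zap70 and 1 at Cd3e, both lower) reached the level of the filter on low counts (2.81 CPM) in cTreg libraries alone. Such a region is tested through the state in which it is high, so these 2 are given as a description, and 10 calls are left without them. The median log2 fold change of the member regions was -0.03, against 0.01 for all regions. Within controls it was -0.20, against -0.01, and within Atg14-deficient cells 0.03, against 0.02. Of the 12 promoter regions, 0 were called by edgeR or DESeq2, against 10.7% of all promoter regions by edgeR, and 1 had an unadjusted edgeR p below 0.05. Of the 63 regions outside promoters 12 were called (19.0%, against 21.4%). DESeq2 also called 12 regions in all, 11 of them shared.

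The promoters were not called at any of the 8 genes that had a promoter region. The Cd3g promoter held 17.8, 16.8 and 13.4 CPM in control cTregs, 18.5, 14.8, 26.8 and 18.0 CPM in Atg14-deficient cTregs, 17.9, 19.4 and 16.2 CPM in control eTregs and 16.2, 15.1, 18.3 and 18.0 CPM in Atg14-deficient eTregs. These ranges overlap in all groups, with a log2 fold change of -0.04 ± 0.17 (SE) and an edgeR adjusted p of 0.899. The same comparison gave -0.41 ± 0.20 (SE) at the Cd247 promoter (edgeR adjusted p = 0.146), -0.20 ± 0.18 (SE) at the Cd3e promoter (edgeR adjusted p = 0.475) and 0.35 ± 0.19 (SE) at the Zap70 promoter with the most counts (edgeR adjusted p = 0.190). The other Zap70 promoter, at the 5′ end of the gene, had 0.11 ± 0.16 (SE, edgeR adjusted p = 0.680). The smallest p was that of the downstream Lck promoter (chr4:129558213-129558934), at -0.49 ± 0.18 (SE) with an edgeR unadjusted p of 0.0112 and an adjusted p of 0.0512. A p that misses the threshold does not show that these promoters were equally open in both states.

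Cd247, which encodes the zeta chain with most of the receptor's tyrosine motifs, held 6 of the 12 called regions, all of them intronic, with 5 lower and 1 higher in eTregs (plot along Cd247). These were 27.3% of its 22 tested regions, against 18.9% of all regions and 21.4% of those outside promoters. The most abundant was chr1:165837543-165838299, an intronic region 49.2 kb past the nearest start. It held 25.4, 35.2 and 23.2 CPM in control cTregs and 11.7, 19.4 and 15.5 CPM in control eTregs. In Atg14-deficient cells it held 21.8, 21.0, 22.3 and 27.6 CPM in cTregs and 20.4, 12.6, 17.5 and 14.9 CPM in eTregs. In both genotypes every eTreg library lay below every cTreg library. The log2 fold change was -0.67 ± 0.17 (SE, edgeR adjusted p = 0.00432).

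The next called region along the gene (chr1:165840896-165841137) held 10.8, 13.9 and 18.7 CPM in control cTregs and 5.86, 4.72 and 9.37 CPM in control eTregs, which do not overlap. The Atg14-deficient cells held 10.1, 16.4, 12.1 and 14.5 CPM in cTregs and 9.59, 12.1, 7.41 and 9.25 CPM in eTregs, where the ranges overlap. The difference on the log2 scale was -0.77 ± 0.22 (SE, edgeR adjusted p = 0.0115). A smaller region nearer the start (chr1:165810716-165810916) fell from 3.93 ± 0.750 (SD, n = 3) to 2.16 ± 0.694 CPM in controls and from 5.43 ± 1.93 (SD, n = 4) to 1.49 ± 0.957 CPM in Atg14-deficient cells, a log2 fold change of -1.33 ± 0.38 (SE, edgeR adjusted p = 0.0134). The control libraries of the 2 states did not overlap there and the Atg14-deficient ones did. Each of these 3 regions stayed past the threshold when any of the 14 libraries was left out.

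**Figure D2:**
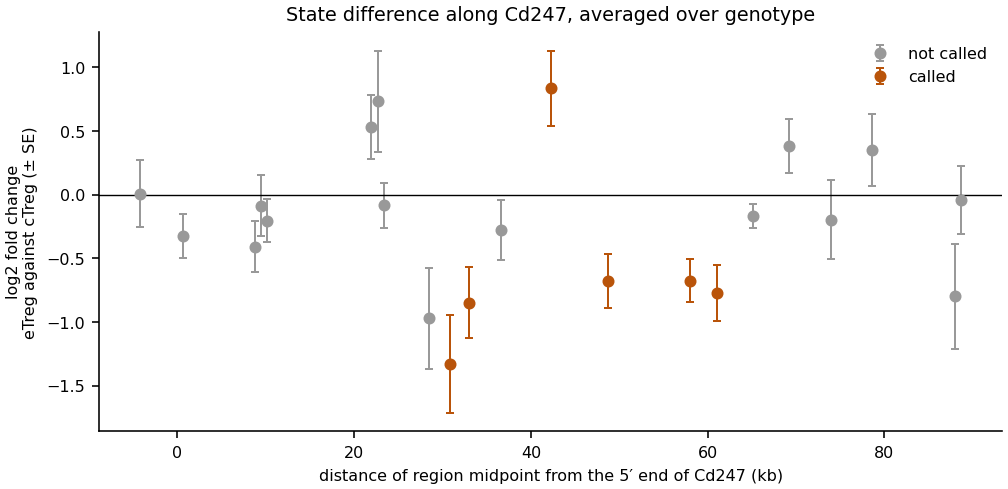
Log2 fold change of eTregs against cTregs, averaged over genotype, for the 22 tested Cd247 regions (points, ± SE) by distance of the midpoint from the 5′ end of the gene in kb. Orange points are the 6 called regions, 5 below and 1 above 0.

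The other 3 Cd247 calls were each lost when some single libraries were left out, and 2 of them are given. The region chr1:165828213-165829239, in which Atg14-deficient cTreg replicate 2 held 26.5 CPM against 12.8 to 17.1 CPM in the other cTreg libraries, had -0.68 ± 0.21 (SE, edgeR adjusted p = 0.0232), lost without control cTreg replicate 1, Atg14-deficient cTreg replicate 2, control eTreg replicate 2 or Atg14-deficient eTreg replicate 3 (edgeR adjusted p 0.0522 to 0.0750). The region that was higher in eTregs, chr1:165822052-165822406, had 0.83 ± 0.29 (SE, edgeR adjusted p = 0.0409). It held 21.0 CPM in control eTreg replicate 2 against 4.18 to 14.4 CPM in the other eTreg libraries, and 3.15 to 9.57 CPM in cTregs. Without that library its log2 fold change was 0.58 (edgeR adjusted p = 0.192), and the call was also lost without control cTreg replicate 1 or 3, Atg14-deficient cTreg replicate 1, 2 or 3 or Atg14-deficient eTreg replicate 1 or 4 (edgeR adjusted p up to 0.126).

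Zap70, the kinase that docks on the phosphorylated receptor chains, held 3 called regions of 9 tested (33.3%, against 18.9% of all regions), 1 of which passed the filter through cTreg libraries alone. An intronic region 1.69 kb past its nearest start (chr1:36768757-36769224) held 3.91, 7.90 and 2.68 CPM in control cTregs and 5.86, 15.5 and 14.8 CPM in control eTregs, which overlap. It held 2.52, 9.73, 6.31 and 7.71 CPM in Atg14-deficient cTregs and 10.2, 11.7, 11.9 and 10.5 CPM in Atg14-deficient eTregs, where every eTreg library lay above every cTreg library. This gave a log2 fold change of 1.01 ± 0.28 (SE, edgeR adjusted p = 0.00990), 2.01 times the cTreg level. A weakly accessible intergenic region downstream of the gene (chr1:36784690-36785065) went the other way.

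That downstream region held 4.89, 3.83 and 2.68 CPM in control cTregs and 1.95, 2.62 and 1.44 CPM in control eTregs. It held 5.88, 7.40, 3.15 and 3.85 CPM in Atg14-deficient cTregs and 0.599, 1.67, 0.00 and 0.514 CPM in Atg14-deficient eTregs. In both genotypes every eTreg library lay below every cTreg library, and 1 of the Atg14-deficient eTreg libraries had no count. The log2 fold change was -1.94 ± 0.46 (SE, edgeR adjusted p = 0.00305), at a mean count of 9.36 per library. The call of the intron held when any library was left out.

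A further region nearest to Zap70 but within the neighbouring gene Tmem131 (chr1:36807210-36807434) had no count in any control cTreg library and 3.25, 2.36 and 0.180 CPM in control eTregs. Set against a floor of 3 counts over the control cTreg group, the mean of control eTregs was 6.77-fold higher. This ratio fell to 4.45 without control eTreg replicate 1 and to 4.13 or 4.08 without control cTreg replicate 1 or 2. It leaves out the spread of the eTreg libraries, and the floor takes counts as independent, so it is not a strict bound. In Atg14-deficient cells the region held 4.20, 0.779, 0.526 and 1.93 CPM in cTregs and 5.99, 0.00, 3.18 and 4.11 CPM in eTregs, which overlap. The difference there was 0.92 ± 0.84 (SE) on the log2 scale (edgeR adjusted p = 0.522). Its call (edgeR adjusted p = 0.0198) was lost without control cTreg replicate 1 or control eTreg replicate 1 (edgeR adjusted p 0.0542 to 0.0552), and its mean count was 6.29 per library.

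**Figure D3:**
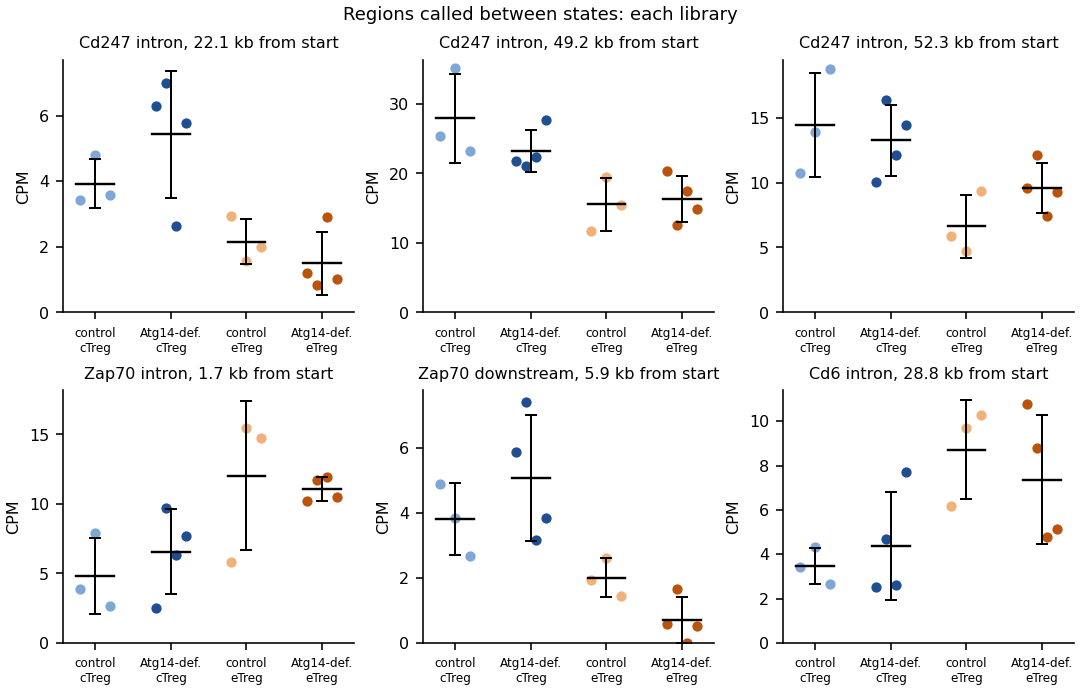
CPM of each library (points) at the 6 regions whose state call held when any library was left out, by group, with the mean (line) and SD (bar). The 3 Cd247 regions and the downstream Zap70 region sit lower in eTregs, the Zap70 and Cd6 introns higher; the downstream Zap70 region passed the filter on low counts through cTregs alone.

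Cd6, a surface receptor that binds the adhesion molecule ALCAM, held 1 called region of 9 tested (11.1%, against 18.9% of all regions), in an intron 28.8 kb past its start (chr19:10801046-10801448). It rose from 3.42, 4.31 and 2.68 CPM in control cTregs to 6.18, 9.71 and 10.3 CPM in control eTregs, without overlap. In Atg14-deficient cells it held 2.52, 4.67, 2.63 and 7.71 CPM in cTregs and 10.8, 8.79, 4.76 and 5.14 CPM in eTregs, with overlap. The difference on the log2 scale was 1.01 ± 0.30 (SE, edgeR adjusted p = 0.0157), and the call held when any library was left out. Of 11 tested Cd5 regions 1 (9.09%) was lower in eTregs, in an intron (chr19:10731922-10732493), with -0.55 ± 0.20 (SE, edgeR adjusted p = 0.0446). All its groups overlapped. The Cd5 call was lost without control cTreg replicate 1 or 2, Atg14-deficient cTreg replicate 2 or 3, control eTreg replicate 1 or 3 or Atg14-deficient eTreg replicate 1 or 4 (edgeR adjusted p 0.0518 to 0.212), with a log2 fold change of -0.68 to -0.39 over all the libraries left out.

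At Cd3e, which encodes the epsilon chain present in each CD3 dimer, 1 of 5 tested regions was called (20.0%, against 18.9%), a weak intergenic site 12.8 kb downstream of the start (chr9:44996712-44996904). It held 0.978, 1.91 and 1.78 CPM in control cTregs, 3.36, 3.11, 3.68 and 2.57 CPM in Atg14-deficient cTregs, 0.651, 0.525 and 0.721 CPM in control eTregs and 0.00, 0.00, 0.529 and 1.03 CPM in Atg14-deficient eTregs. Every eTreg library lay below every cTreg library of its genotype. This gave a log2 fold change of -2.00 ± 0.63 (SE, edgeR adjusted p = 0.0231) at a mean count of 4.86 per library. The level of the filter was reached in 3 Atg14-deficient cTreg libraries and in no other library, so that the region was tested through the group in which it is highest. The call was lost without control cTreg replicate 2 or control eTreg replicate 2 (edgeR adjusted p 0.0502 to 0.0549). When 3 of the other libraries were left out the region did not pass the filter on low counts. No region at Cd3d, Cd3g, Cd4, Lck or Lat was called between the states.

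Within the genotypes the counts were smaller. In controls 1 of 75 regions was called (1.33%, against 5.30% of all regions), the Cd247 intron chr1:165837543-165838299, at -0.85 ± 0.25 (SE, edgeR adjusted p = 0.0408). That call was lost without any of the 3 control cTreg libraries or control eTreg replicate 1 or 3 (edgeR adjusted p 0.0508 to 0.194). The replicate block, for contrasts between the states, takes same-numbered cTreg and eTreg libraries of a genotype as pairs. With it the edgeR adjusted p of this region was 0.00821. In controls 4 of 75 regions were then called (5.33%, against 10.4% of all regions). The other 3 were the Cd247 intron chr1:165840896-165841137 (edgeR adjusted p = 0.00969), the Zap70 intron chr1:36768757-36769224 (0.0212) and the Zap70 region chr1:36807210-36807434 (0.0172). In Atg14-deficient cells 5 of 75 were called (6.67%, against 9.81%), of which 1 was higher. The regions that were lower were the downstream Zap70 region (-2.94 ± 0.66 (SE), edgeR adjusted p = 0.00504), the Cd247 introns at chr1:165810716-165810916 (-1.78 ± 0.52 SE) and chr1:165828213-165829239 (-0.86 ± 0.29 SE) and the Cd3e downstream site (-2.78 ± 0.84 SE).

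The region called as higher in eTregs within Atg14-deficient cells lay 8.84 kb upstream of Cd5 (chr19:10747599-10748131), whose product is a brake on receptor signalling. It held 25.2, 26.5, 25.8 and 23.8 CPM in Atg14-deficient cTregs and 36.6, 34.7, 37.1 and 45.7 CPM in Atg14-deficient eTregs, without overlap. In controls it held 25.9, 23.0 and 21.4 CPM in cTregs and 32.5, 31.0 and 21.6 CPM in eTregs, with overlap. The log2 fold change was 0.61 ± 0.17 (SE) in Atg14-deficient cells (edgeR adjusted p = 0.0243) and 0.26 ± 0.20 (SE) in controls (edgeR adjusted p = 0.522). Averaged over genotype it had 0.43 ± 0.13 (SE, edgeR adjusted p = 0.0196), past the adjusted threshold but short of the cutoff of 0.5. The difference between the genotypes did not pass the test, with an interaction of 0.35 ± 0.27 (SE, edgeR adjusted p = 1.00). Without Atg14-deficient cTreg replicate 1 or 3 or Atg14-deficient eTreg replicate 4 the call was lost (edgeR adjusted p 0.0517 to 0.0967).

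Of the 5 calls in Atg14-deficient cells, those of the downstream Zap70 region and of the Cd3e site passed the filter through cTreg libraries alone, which leaves 3 calls without them. The call at chr1:165810716-165810916 was lost without Atg14-deficient cTreg replicate 1 or 2 or Atg14-deficient eTreg replicate 1, 2 or 4 (edgeR adjusted p 0.0534 to 0.0817). The call at chr1:165828213-165829239, at an edgeR adjusted p of 0.0497, was lost without 11 of the 14 libraries in turn and held without Atg14-deficient cTreg replicate 4, control cTreg replicate 3 or Atg14-deficient eTreg replicate 2. The Cd3e call was lost without Atg14-deficient eTreg replicate 1, 2 or 3 (edgeR adjusted p 0.0582 to 0.0848).

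The comparison of Atg14-deficient with control eTregs asks whether loss of Atg14 altered these loci. By edgeR, 0 of the 75 regions passed the adjusted threshold, against 0.0228% of all regions, and DESeq2 also called 0. At an unadjusted p below 0.05 with the same fold change, 10 regions were higher in Atg14-deficient eTregs (13.3%, against 4.59% of all regions) and 1 was lower (1.33%, against 1.77%). The median log2 fold change was 0.32, against 0.06 for all regions, and 54 of the 75 regions lay above 0 (72.0%, against 56.2%). In 10 regions every Atg14-deficient eTreg library lay above every control eTreg library (13.3%, against 4.97%) and in 1 region below (1.33%, against 3.51%). Each of these counts of 10 includes a Lat region that passed the filter through Atg14-deficient libraries alone, and each is 9 without it. For a single region, an exact two-sided permutation test of 3 against 4 libraries cannot give a p under 0.0571.

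These counts depended on scaling and on the control libraries. With TMM normalization 8 of 75 regions were higher (against 3.72% of all regions) and 1 lower (against 2.46%). With loess offsets 7 were higher (against 3.46%) and 2 lower (against 2.61%). The share of all unadjusted calls that were higher went from 72.2% to 60.1% with TMM and 57.0% with loess offsets. The median of the member regions was 0.26 with TMM and 0.24 with loess offsets. Without control eTreg replicate 3 the count of higher regions was 5 of 76 (against 3.80% of all regions). Without control eTreg replicate 2 it was 16 of 76 (against 5.73%). Of the cTreg marker promoters, Klf2 held 106 to 124 CPM in Atg14-deficient eTregs against 76.8 to 102 CPM in controls, Ccr7 held 15.9 to 25.9 against 8.78 to 13.6 CPM and Lef1 held 43.5 to 54.5 against 35.3 to 48.3 CPM, and the promoters of the Treg markers held 103 to 107 CPM against 80.0 to 87.4 CPM. The share of counts in promoter regions was 53.5% to 57.4% in Atg14-deficient and 54.8% to 57.8% in control eTregs. The part of these in the result was not tested.

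**Figure D4:**
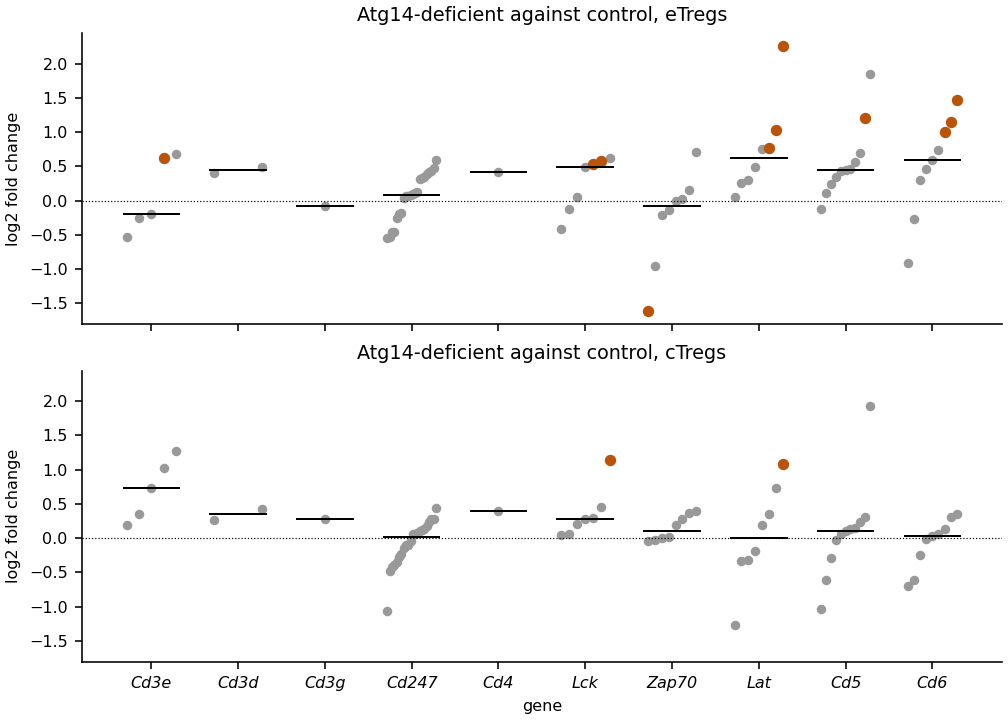
Log2 fold change of Atg14-deficient against control cells for each tested region by gene, in eTregs (top) and cTregs (bottom), with the median of each gene (line). Orange points pass the unadjusted threshold and 0 regions pass the adjusted one; the Zap70 region without counts in control cTregs is left out of points and medians.

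The counts of regions above 0 in eTregs are given by gene, beside 56.2% of all regions, and differences between genes were not tested. All 8 Lat regions, 10 of 11 at Cd5, 7 of 9 at Cd6 and 5 of 7 at Lck lay above 0, with medians of 0.63, 0.45, 0.60 and 0.49. With TMM or loess offsets 7 of the 8 Lat regions lay above 0, and the counts for Cd5, Cd6 and Lck were the same. At Cd247 15 of 22 regions lay above 0, with a median of 0.09. At Zap70 the median was near 0, with 4 of 9 above 0 (3 with TMM or loess offsets), and at Cd3e it was -0.20, with 2 of 5 above 0. Both Cd3d regions and the Cd4 region lay above 0, with a median of 0.45 and a value of 0.42, and the Cd3g region lay below, at -0.07. Of these, 1 region each at Lat, Cd5 and Cd3e passed the filter through Atg14-deficient libraries alone, and without them 7 Lat and 9 Cd5 regions lay above 0. Regions of a gene share their locus and their libraries and are not replicates.

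The smallest unadjusted p was that of the region 1.72 kb upstream of Lck (chr4:129575049-129575674), the kinase that starts the signal. It held 33.8, 36.5 and 26.5 CPM in control eTregs and 47.3, 42.7, 50.6 and 51.1 CPM in Atg14-deficient eTregs, without overlap. The difference on the log2 scale was 0.58 ± 0.16 (SE), with an unadjusted p of 0.000881 and an adjusted p of 0.305 by edgeR. In cTregs the region held 37.4, 38.1 and 34.8 CPM in controls and 42.0, 40.5, 47.9 and 40.2 CPM in Atg14-deficient cells, also without overlap, at 0.21 ± 0.16 (SE, edgeR unadjusted p = 0.189). The difference between these effects was 0.37 ± 0.22 (SE, edgeR unadjusted p = 0.108).

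The next regions by p lay at Cd5 and Cd6. The region 18.3 kb upstream of Cd5 (chr19:10757086-10757518) held 2.60, 6.82 and 5.05 CPM in control eTregs and 15.0, 12.6, 6.35 and 11.8 CPM in Atg14-deficient eTregs, which overlap. Its log2 fold change was 1.21 ± 0.41 (SE, edgeR unadjusted p = 0.00636, adjusted p = 0.457). The intergenic region past the end of Cd6 (chr19:10788282-10788615) held 4.55, 7.09 and 4.69 CPM in control eTregs and 13.2, 7.95, 16.9 and 9.76 CPM in Atg14-deficient eTregs, without overlap. Its log2 fold change was 1.15 ± 0.39 (SE, edgeR unadjusted p = 0.00662, adjusted p = 0.457).

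**Figure D5:**
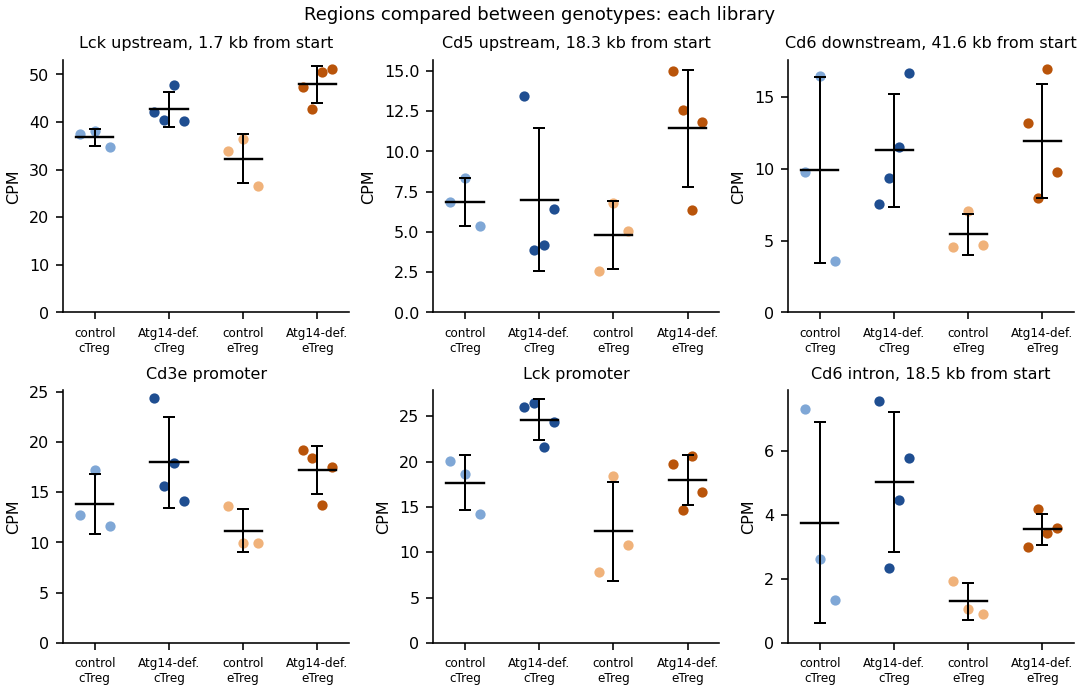
CPM of each library (points) at the 3 regions with the smallest p for genotype in eTregs, at the 2 promoters past the unadjusted threshold and at a Cd6 intron (the next region by p among those beyond 0.5 on the log2 scale), by group, with the mean (line) and SD (bar). In eTregs the Atg14-deficient libraries lie above all controls except at the upstream Cd5 region and the Lck promoter, where they overlap.

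Among the promoters, those of Cd3e and Lck were among the 10. The Cd3e promoter (chr9:45009190-45009936) held 13.7, 9.97 and 9.91 CPM in control eTregs and 19.2, 18.4, 13.8 and 17.5 CPM in Atg14-deficient eTregs. The groups did not overlap, though the lowest Atg14-deficient and the highest control library nearly met. Its log2 fold change was 0.63 ± 0.26 (SE, edgeR unadjusted p = 0.0230, adjusted p = 0.561). The downstream Lck promoter had 0.54 ± 0.26 (SE, edgeR unadjusted p = 0.0446, adjusted p = 0.616), with 7.81, 18.4 and 10.8 CPM in control and 19.8, 14.6, 20.6 and 16.7 CPM in Atg14-deficient eTregs, which overlap. In cTregs that promoter held 20.0, 18.7 and 14.3 CPM in control and 26.0, 26.5, 21.6 and 24.4 CPM in Atg14-deficient libraries, without overlap (edgeR unadjusted p = 0.0783). The other 5 of the 10 regions lay at Lat (3) and Cd6 (2), with log2 fold changes from 0.77 to 2.25. The Lat region with the last of these values reached the level of the filter on low counts in Atg14-deficient libraries alone. Among them, named after its values were seen, the Cd6 intron chr19:10811414-10811732 held 1.95, 1.05 and 0.901 CPM in control and 3.00, 4.18, 3.44 and 3.60 CPM in Atg14-deficient eTregs, without overlap. The region that was lower was the downstream Zap70 region, at -1.62 ± 0.72 (SE, edgeR unadjusted p = 0.0336, adjusted p = 0.585).

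In cTregs 0 of the 75 regions passed the adjusted threshold for genotype by edgeR or by DESeq2, against 0.0163% of all regions by edgeR. At the unadjusted threshold 3 were higher in Atg14-deficient cTregs (4.00%, against 1.99%) and 0 were lower (against 1.35%). This tally turned to 1 higher and 2 lower with only the groups compared, where 69 member regions were tested (against 2.05% and 1.03% of all regions). It was also 1 and 2 with the replicate block (against 1.79% and 1.67%). For genotype that block takes the replicate number as 1 factor over all 4 groups. Control and Atg14-deficient libraries of a number come from different chimeras and did not deviate together (r from -0.217 to 0.0914), so this is not a pairing of mice. In 8 regions all Atg14-deficient cTreg libraries lay above all controls (10.7%, against 3.05%) and in 3 regions below (4.00%, against 2.45%). Of the 8, 2 (1 at Cd5 and 1 at Cd3e) passed the filter through Atg14-deficient libraries alone, which leaves 6. The median log2 fold change was 0.12, against 0.03 for all regions. The share of all unadjusted calls that were higher was 59.6%, and 49.0% with loess offsets, where 2 member regions were higher (against 1.66% of all regions). In cTregs the summed promoters of the erythroid markers held 10.3 to 13.4 CPM in controls and 14.3 to 21.6 CPM in Atg14-deficient libraries, and those of the Treg markers 109 to 119 against 123 to 149 CPM, neither overlapping. The part of these in the result was not tested.

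The 3 regions were the one within Tmem131 nearest to Zap70, one 39.3 kb downstream of the Lat start and one over a coding exon of Lck (chr4:129556488-129556744). The Tmem131 region had no count in control cTregs and 4.20, 0.779, 0.526 and 1.93 CPM in Atg14-deficient cTregs (edgeR unadjusted p = 0.00392). Against the floor of 3 counts the Atg14-deficient mean was 6.51-fold higher, or 3.78-fold without Atg14-deficient cTreg replicate 1. Without control cTreg replicate 1 or 2 it was 3.98-fold or 3.92-fold higher. These ratios are not strict bounds either. The Lat region (chr7:126329995-126330560) had 1.09 ± 0.47 (SE, edgeR unadjusted p = 0.0287). The Lck exon held 1.47, 1.44 and 1.78 CPM in control cTregs and 2.52, 2.34, 4.21 and 4.50 CPM in Atg14-deficient cTregs, without overlap, at 1.15 ± 0.55 (SE, edgeR unadjusted p = 0.0474). The edgeR adjusted p of each of the 3 rounded to 1. The median of the member regions was the same with the region without counts set to its ratio over the floor. By gene, all 5 tested Cd3e regions and all 7 Lck regions lay above 0 in cTregs, with medians of 0.73 and 0.28, also with TMM and loess offsets, against 53.5% of all regions before those offsets. Of the Cd3e regions 4 are left without the one that passed the filter through Atg14-deficient libraries alone. Of the Cd247 regions 11 of 22 lay above 0, with a median of 0.01.

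Whether the effect of genotype differed between the populations was tested by the interaction. By edgeR 0 of 75 regions passed the adjusted threshold, as did 0% of all regions, and DESeq2 also called 0 of the member regions. At the unadjusted threshold the effect was higher in eTregs than in cTregs in 3 regions (4.00%, against 1.90% of all regions) and lower in 2 (2.67%, against 1.14%). The Cd6 promoter (chr19:10829851-10830187) was among the former, with 11.5 ± 2.73 CPM in control cTregs (SD, n = 3), 7.53 ± 2.00 in Atg14-deficient cTregs (SD, n = 4), 7.29 ± 2.12 in control eTregs and 9.92 ± 3.84 CPM in Atg14-deficient eTregs. Its interaction was 1.06 ± 0.48 (SE, edgeR unadjusted p = 0.0361). The others were the region 18.3 kb upstream of Cd5 (1.24 ± 0.58 (SE), edgeR unadjusted p = 0.0427) and a coding exon of Lat at chr7:126367707-126367994 (1.11 ± 0.53 (SE), edgeR unadjusted p = 0.0441), both named after their values were seen. The downstream Zap70 region had -1.98 ± 0.92 (SE, edgeR unadjusted p = 0.0397), and the fitted value of the region within Tmem131 rests on a group without counts and is not given.

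The coreceptor and the CD3 delta chain passed neither test. The Cd4 intronic region held 27.4, 30.2 and 16.1 CPM in control cTregs, 37.4, 21.8, 35.8 and 36.9 CPM in Atg14-deficient cTregs, 28.6, 27.8 and 21.3 CPM in control eTregs and 39.3, 20.9, 47.1 and 29.3 CPM in Atg14-deficient eTregs. All groups overlapped. The state difference was 0.05 ± 0.17 (SE, edgeR adjusted p = 0.871) and the genotype difference 0.42 ± 0.24 (SE) in eTregs and 0.40 ± 0.25 (SE) in cTregs (edgeR unadjusted p = 0.0965 and 0.118). The Cd3d exon region had a state difference of -0.14 ± 0.15 (SE, edgeR adjusted p = 0.542) and genotype differences of 0.41 ± 0.21 (SE) in eTregs and 0.42 ± 0.21 (SE) in cTregs (edgeR unadjusted p = 0.0589 and 0.0541). The intervals of these genotype differences reach past the cutoff of 0.5.

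Summed over the regions of a gene, the Atg14-deficient libraries lay above all controls at 1 of the 10 genes in eTregs (10.0%, against 6.18% of all genes by nearest start) and at 1 in cTregs (10.0%, against 3.02%), and below at none. The ranges of the other genes overlapped. In eTregs the gene was Cd5, which held 107 to 155 CPM in control eTregs and 162 to 186 CPM in Atg14-deficient eTregs, which do not overlap, and 123 to 163 against 145 to 177 CPM in cTregs, which do. In cTregs it was Cd3e, whose regions held 25.0 to 32.6 CPM in control cTregs and 36.3 to 48.7 CPM in Atg14-deficient cTregs, without overlap, and 25.1 to 31.8 against 28.6 to 42.8 CPM in eTregs, with overlap. Cd247 held 289 to 377 CPM in control cTregs and 255 to 317 CPM in control eTregs. Over all 79 regions the sum was 727 to 964 CPM in control cTregs, 896 to 981 in Atg14-deficient cTregs, 706 to 949 in control eTregs and 836 to 1035 CPM in Atg14-deficient eTregs, and these ranges overlap.

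The other genes of the pathway were taken as a list of 35 genes for receptor-proximal kinases, phosphatases, adaptors and their regulators, with 566 regions, of which 529 were tested. Between the states 152 of these were called (28.7%, against 18.9% of all regions), 29 higher (5.48%, against 8.40%) and 123 lower in eTregs (23.3%, against 10.5%), with a median log2 fold change of -0.32. The lower regions were found chiefly at Cblb, a ubiquitin ligase that restrains signalling (27 of 56), Prkcq, the kinase PKC-theta (17 of 45), Trat1, an adaptor of the receptor (15 of 23), and Themis and Pag1 (9 each). The smallest p were those of a Cblb region (chr16:52142851-52143523), which fell from 33.5 ± 3.81 to 7.95 ± 1.72 CPM in controls (SD, n = 3 each), and of Prkcq regions at chr2:11205759-11206079 and chr2:11254466-11254823. Their log2 fold changes were -1.86 ± 0.18, -2.36 ± 0.30 and -1.97 ± 0.25 (SE), with edgeR adjusted p of 8.86e-08, 3.01e-06 and 3.68e-06.

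Among the regions of that list that rose in eTregs, the smallest p were found upstream of Ptpn22, a phosphatase that restrains Lck (chr3:103907502-103908113), at a region assigned to Sla, an adaptor that lowers receptor levels (chr15:66785367-66785746), and at a region assigned to Ptprc, which encodes CD45 (chr1:138038521-138038916). The Ptpn22 region rose from 10.6 ± 7.08 to 30.2 ± 4.76 CPM in controls (SD, n = 3 each), and the log2 fold changes of the 3 were 1.65 ± 0.21, 1.47 ± 0.27 and 1.78 ± 0.36 (SE), with edgeR adjusted p of 4.29e-06, 0.000345 and 0.000828. Of the 529 regions, 0 were called by edgeR for genotype in eTregs or in cTregs. At the unadjusted threshold, 50 were higher in Atg14-deficient eTregs (9.45%, against 4.59% of all regions) and 7 lower (1.32%, against 1.77%). In cTregs 15 were higher (2.84%, against 1.99%) and 5 lower (0.945%, against 1.35%).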

How the data were processed

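The members and all gene lists, motifs and tests were chosen with earlier results of these data known. Bulk ATAC-seq counts of 14 libraries were used as deposited, whole-number counts per region without normalization. Per their methods, the authors trimmed reads (Trimmomatic), aligned them (BWA), removed duplicates (Picard, samtools), shifted reads for the transposase, kept nucleosome-free fragments, called peaks per library (MACS2), kept and merged peaks shared among replicates, and counted reads with bedtools. Regions thus rest on peaks in some group, and a region open in few cells may be missing. Of all counts 82% were even numbers, as when both reads of a pair are counted; whether that was done is not given in the sources used here, and counts were not taken as independent molecules.

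The methods name mm9 and the submitters' processing notes mm10 and GRCm38. All 67207 regions on chromosomes lay within GRCm38 chromosome ends, and 10147 of 21774 gene starts had a region within 200 bp (758 after a shift of 20000 bp), so GRCm38 was used, with RefSeq annotation and sequence of GRCm38.p6. Coordinates count from 1.

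Counts were scaled by library total and tested with edgeR 4.0.16 (robust quasi-likelihood, 1 coefficient per group, filterByExpr) in R 4.3.3, on all regions at once, with Benjamini-Hochberg adjustment over the 61366 tested. Regions were called where the adjusted p was below 0.05 and the change on the log2 scale more than 0.5. SEs were taken from the fold change and F statistic. Of the 79 member regions 4 were too low to be tested (2 at Cd3e, 1 at Cd247 and 1 at Cd5). Named regions were the promoter region (midpoint within 1000 bp of a start) with the highest mean count of each gene, all called regions, the region with the highest level per kb of each gene and the 3 smallest p of each genotype contrast and of the interaction, with exceptions stated in place. Values of 1 marker gene and 1 called region are not reported here. Marker promoters (Treg, CD4 against CD8, cTreg, eTreg, B cell, myeloid, NK cell, erythroid) were summed per library, except that cTreg ones are given by gene. The eTreg ones are given both ways. Motifs were matched on both strands in 300-base windows, as letters that may overlap. The fit was tested on simulated counts.

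Alternatives were TMM, loess offsets (limma 3.58.1), DESeq2 1.42.0, no filter, at least 10 counts in every library, only the groups compared, a replicate block, a log2 fold change beyond 1, narrower assignment of regions to genes, and each library left out. Replicate numbers come from the labels. The deviations of same-numbered cTregs and eTregs from their group means were correlated across regions. In Atg14-deficient cells r was 0.119, 0.243, 0.141 and 0.225, and in controls 0.0543, 0.209 and 0.190. All values come from the main fit, which has no pairing in either genotype, except where the block is named. Between the states in Atg14-deficient cells, the block called 6 member regions (8.00%, against 15.5% of all regions). The main fit called 5 (6.67%, against 9.81%), all 5 among them. Figures were drawn with matplotlib 3.10.9.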

Additional observations from a re-analysis of the deposited data

Results flagged for a closer look

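In 3 of 60 pairs of a named region and a group of 4 libraries, 1 library stood further from its neighbour than Dixon's critical value for 4 values of the gap over the range. Chance flags about 1 in 20 groups. At the Cd247 intron chr1:165828213-165829239, Atg14-deficient cTreg replicate 2 was the highest of its group at 26.5 CPM, with the next at 14.3 CPM (gap over range 0.895). At the Cd4 intron chr6:124885134-124885542, Atg14-deficient cTreg replicate 2 was the lowest at 21.8 CPM, with the next at 35.8 CPM (gap over range 0.896). At the region 1.03 kb upstream of Cd3e (chr9:45010549-45010834), Atg14-deficient eTreg replicate 2 was the highest at 8.37 CPM, with the next at 5.99 CPM (gap over range 0.874). The state call of the Cd247 region is lost without the first of these libraries, with a log2 fold change of -0.53 and an edgeR adjusted p of 0.0713.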

How the results depend on the processing

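Between the states, the count of 12 called member regions became 5 with at least 10 counts in every library and 6 with a log2 fold change beyond 1, and was 7 to 14 with a library left out (7 without control cTreg replicate 1). Within controls the count of 1 became 2 with loess offsets, 4 with DESeq2, 2 with at least 10 counts, 0 with only the groups compared (edgeR adjusted p of the region at Cd247 0.0555) and 0 beyond 1, and was 0 to 3 with a library left out. In Atg14-deficient cells the count of 5 became 2 with at least 10 counts, 2 with only the groups compared, 3 beyond 1 and 2 with regions in the gene body or 1000 bp upstream alone, and was 1 to 5 with a library left out. Among the other pathway genes 152 became 72 with at least 10 counts, 86 beyond 1 and 93 by gene body, and was 124 to 164 with a library left out. The genotype contrasts and the interaction gave 0 adjusted calls among member regions under each alternative. With fewer regions passing a filter, or a stricter cutoff, fewer can be called. The causes of the other shifts were not tested.

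Same-numbered cTreg and eTreg libraries of the controls had r of 0.0543, 0.209 and 0.190. Of all libraries, 14 of 14 correlated best with the library of their own number in the other population. The numbers of control and Atg14-deficient libraries did not go together (r from -0.217 to 0.0914). With the replicate block, which pairs these for the state contrasts, 14 member regions were called between the states (18.7%, against 22.9% of all regions), all 12 among them. In controls 4 were called (5.33%, against 10.4%). For genotype the block is 1 factor of replicate number over all groups, not these pairs. In eTregs it left 8 regions higher (against 3.82% of all regions) and 1 lower (against 1.87%) in Atg14-deficient cells at the unadjusted threshold. In cTregs 1 was higher (against 1.79%) and 2 lower (against 1.67%). With at least 10 counts in every library, 3 of 35 regions were higher in eTregs (against 4.96% of all regions) and 0 lower (against 2.16%).

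Values near 0 changed sign with a library left out. The state difference (log2) went from -0.0654 to 0.0518 at the upstream Lck region, -0.0509 to 0.13 at the Cd4 intron, -0.0448 to 0.23 at the Lat promoter and -0.0930 to 0.0640 at the Cd3g promoter. Of the other values of single regions 731 kept their direction and their side of the threshold, 60 lost the threshold and 3 gained it. Depth limits weak regions, with a median of 23 counts per region and library and a biological coefficient of variation of 25.6%.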
